A study of Mus musculus with 8 samples.

Results

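The levels of 10 gap and tight junction genes of the liver were measured by RNA-seq in control, endotoxemic and LGK974-treated mice. The genes were taken by name: the connexins *Gjb1*, *Gjb2* and *Gja1*, the claudins *Cldn1*, *Cldn2*, *Cldn3*, *Cldn12* and *Cldn14*, and *Tjp1* and *Ocln*. All 10 were among the 23282 rows of the deposited count tables. The mice of every group were C57BL/6, 4 weeks old and male according to the labels, with no named mutation or transgene. The control group was injected with saline, and the endotoxemic group was injected *i.p.* with 25 mg/kg LPS, a bacterial endotoxin. The LGK974 group received 60 mg/kg LGK974, an inhibitor of Porcupine and so of Wnt secretion, together with 25 mg/kg LPS. The labels name only the agent LGK974 for that group, and the doses come from the study's description. No group received LGK974 without LPS, so LGK974 was seen only on top of LPS. LGK974 was given 2 h before LPS in most animal experiments and livers were collected 6 h after LPS, but the labels give neither time for these libraries.

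Connexins assemble into gap junction channels, through which neighbouring hepatocytes exchange ions and small signaling molecules. Claudins and occludin form the strands of the tight junction, which separates bile in the canaliculus from blood, and some claudins act as pores for ions while others seal the gap between cells. ZO-1, the product of *Tjp1*, ties these strands to the actin cytoskeleton.

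The deposited data held 8 libraries, 2 from the control group, 4 from the endotoxemic group and 2 from the LGK974 group. Endotoxemic libraries 3 and 4 repeated the counts of libraries 1 and 2 on every row, so each pair was counted once and every group had 2 distinct libraries. Values per library are given in the order of the library numbers, and a value with saline, with LPS or with LGK974 and LPS is one of the control, endotoxemic or LGK974 group. The labels do not say that the libraries of a group came from separate mice, so the p-values measure only the spread between these libraries. Total counts ranged from 9142116 to 15222439, and the smallest signal that a library was taken to show, 3 counts, corresponded to between 0.197 and 0.328 CPM (counts scaled to the library total). This floor covers counting error only. The 3′-end method gives about 1 read per transcript, so counts can be compared between genes without regard to length. Levels are given as CPM after TMM normalization. Rows of the tables follow the order of genes along the chromosomes, but on 541 rows the symbol was that of a gene lying over 2 Mb from its neighbours. Across 438 of these rows that could be matched to a place, the mean counts of the control and endotoxemic groups had a Spearman's rho of 0.0536, and rho was 0.805 when endotoxemic counts were given to the gene at the place of the row, against 0.931 across 22338 rows in order. These rho values run across genes, and genes do not replicate one another. Of the junction genes, *Gja1* stood on such a row and the other 9 stood between genomic neighbours. *Alb*, the albumin gene of hepatocytes, had between 210581 and 914224 counts per library. *Lcn2*, an acute-phase gene induced by LPS, had 218 and 211 counts with saline and between 30894 and 43880 in the other libraries. The labels give every mouse as male, but *Xist*, the RNA of the inactive X chromosome, had between 1171 and 3115 counts with saline or LPS and 3 and 7 with LGK974 and LPS. *Ddx3y*, a Y-linked gene, had 0 counts with saline or LPS and 1755 and 1392 with LGK974 and LPS. LGK974 treatment and this sex-linked pattern cannot be told apart in any comparison with the LGK974 group. In whole liver, fewer cells of a type and less RNA per cell cannot be told apart either.

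The first comparison, endotoxemic against control, asked how LPS changed the junction transcripts. *Gjb1*, *Cldn1* and *Cldn3* were lower in the endotoxemic group, and *Gjb2*, *Cldn2* and *Cldn14* were higher. *Gja1* as deposited, *Cldn12*, *Tjp1* and *Ocln* did not pass the threshold, which was a Benjamini-Hochberg adjusted p below 0.05 in edgeR's quasi-likelihood test. The calls thus covered 3 higher and 3 lower genes of 10. In the same comparison 43.4% of the 12701 genes tested were called, 20.4% higher and 23.0% lower. The median log2 fold change was −0.45 over the 10 genes and 0.01 over all genes tested.

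**Figure D1:**
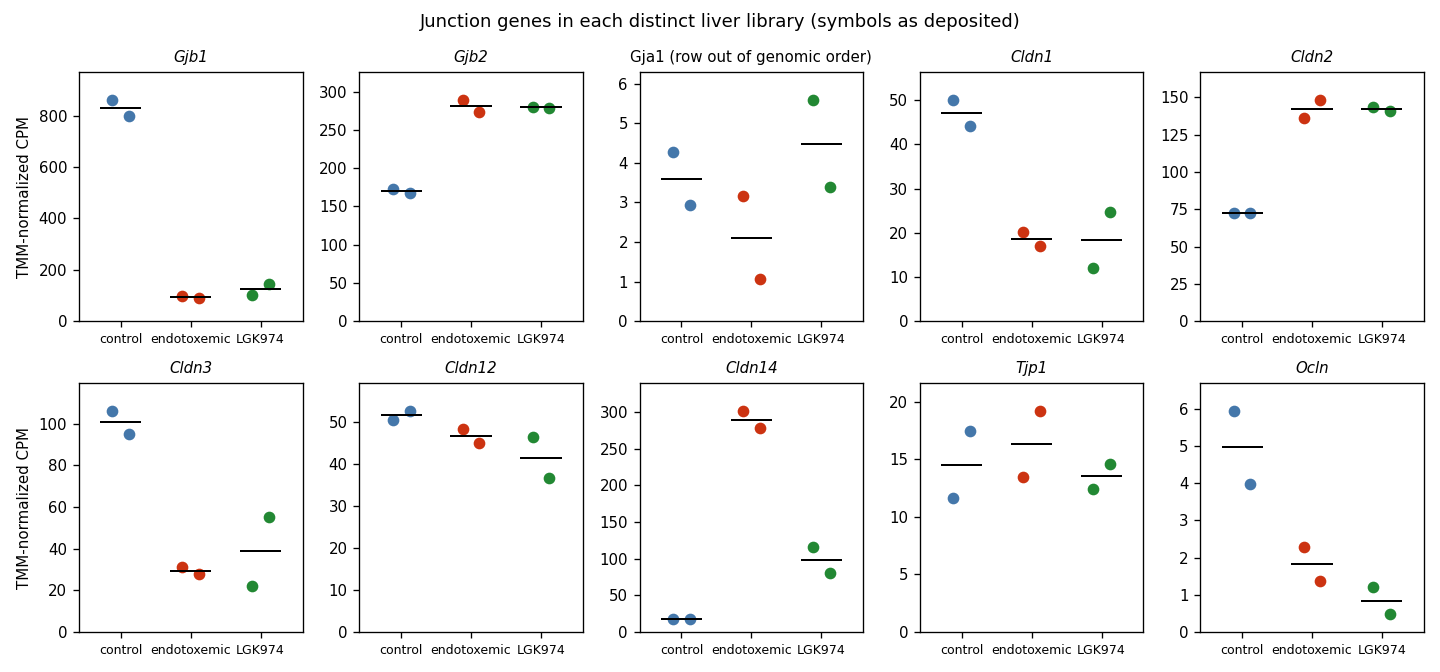
TMM-normalized CPM (vertical axes, each from 0) of the 10 junction genes in the 6 distinct libraries. Points are libraries and lines are group means (n = 2 per group). *Gjb1*, *Cldn1* and *Cldn3* are lower and *Cldn14*, *Cldn2* and *Gjb2* are higher in both LPS-injected groups than in the control group, and *Cldn14* has an intermediate level in the LGK974 group.

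*Gjb1* encodes connexin 32, the main gap junction protein of hepatocytes. It lies on the X chromosome (chrX:101376378-101385629, plus strand, GRCm38). Its level was 860.2 and 799.5 CPM with saline, 96.6 and 91.2 CPM with LPS and 104 and 143.5 CPM with LGK974 and LPS. All libraries of the LPS-injected groups lay far below both control libraries. The group means were 829.9 ± 42.9 (SD, n = 2), 93.9 ± 3.76 and 124 ± 27.7 CPM. The log2 fold change between endotoxemic and control was −3.14 (SE 0.23, 95% interval −3.65 to −2.63, edgeR adjusted p = 1.1e-05), a level 8.84-fold lower. Leaving out any 1 library kept the value between −3.19 and −3.09 and the call.

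*Gjb2* encodes connexin 26, the second connexin of hepatocytes, and lies at chr14:57098600-57104702 on the minus strand. Its level was 173 and 168 CPM with saline, 289 and 273 CPM with LPS and 279.8 and 279 CPM with LGK974 and LPS. Every LPS-injected library was above both control libraries, and the endotoxemic and LGK974 libraries overlapped. *Gjb2* rose 1.65-fold in the endotoxemic group (log2 fold change 0.72, SE 0.18, 95% interval 0.32 to 1.12, edgeR adjusted p = 0.0095). The call was lost when any 1 control or endotoxemic library was left out, with log2 fold changes of 0.70 to 0.77 and edgeR adjusted p-values of 0.052 to 0.088.

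Because *Gjb1* fell while *Gjb2* rose, their order turned over. *Gjb1* made up 83.3% of the summed *Gjb1* and *Gjb2* counts in control library 1 (95% Wilson interval 82.6% to 83.9%) and 82.7% in control library 2 (82.0% to 83.3%). It made up 25.0% in each endotoxemic library (23.6% to 26.5% in both). In the LGK974 libraries, the share was 27.2% (26.0% to 28.4%) and 34.0% (32.8% to 35.2%). The intervals cover counting error only. Both LGK974 shares lay closer to the endotoxemic than to the control shares, and those of the LGK974 libraries differed from each other by more than counting error. Counts of *Gjb2* per count of *Gjb1* were 0.201 and 0.210 with saline, 2.99 in each endotoxemic library, and 2.68 and 1.94 with LGK974 and LPS.

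**Figure D2:**
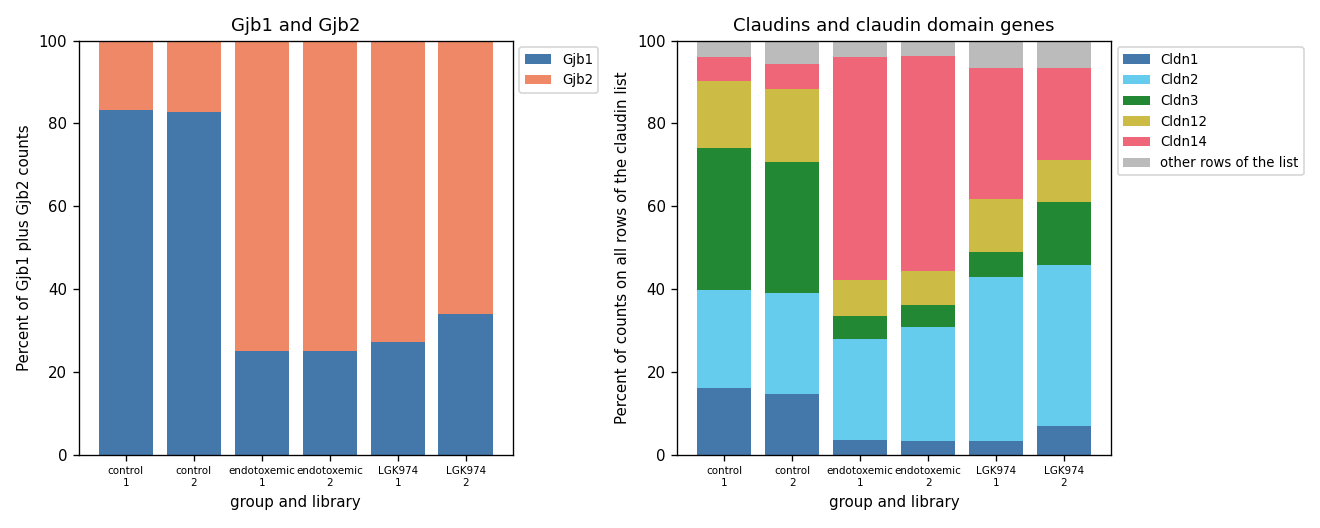
Percent of the summed Gjb1 and Gjb2 counts (left) and percent of the counts on the 25 rows of the claudin list, which holds 2 claudin domain genes (right) in each of the 6 distinct libraries, with the groups and library numbers on the horizontal axes. Gjb1 makes up 83.3% and 82.7% of the pair with saline and 25.0% in each endotoxemic library, and Cldn14 makes up 52.9% of the counts on the list on average in the endotoxemic group.

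The upstream sequences of the genes whose levels moved apart are shown for both pairs, *Gjb1* with *Gjb2* and *Cldn3* with *Cldn14*. Each run is the 250 bases before the outermost start in the RefSeq promoter table (GRCm38.p6), written 5′ to 3′ on the strand of the gene. They lie at chrX:101376126-101376375 (plus strand), chr14:57104703-57104952 (minus), chr5:134985964-134986213 (plus) and chr16:94008838-94009087 (minus). Capitals mark matches to the motifs that were searched.
Gjb1: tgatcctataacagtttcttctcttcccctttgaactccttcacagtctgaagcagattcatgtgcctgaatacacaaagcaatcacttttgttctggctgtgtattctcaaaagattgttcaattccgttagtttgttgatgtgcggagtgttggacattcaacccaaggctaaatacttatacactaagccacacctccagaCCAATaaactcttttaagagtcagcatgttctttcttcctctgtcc
Gjb2: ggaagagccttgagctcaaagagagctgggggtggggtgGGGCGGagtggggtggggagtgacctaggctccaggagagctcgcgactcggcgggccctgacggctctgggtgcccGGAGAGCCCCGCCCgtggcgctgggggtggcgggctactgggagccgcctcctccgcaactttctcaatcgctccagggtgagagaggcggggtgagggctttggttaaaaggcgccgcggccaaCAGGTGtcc
Cldn3: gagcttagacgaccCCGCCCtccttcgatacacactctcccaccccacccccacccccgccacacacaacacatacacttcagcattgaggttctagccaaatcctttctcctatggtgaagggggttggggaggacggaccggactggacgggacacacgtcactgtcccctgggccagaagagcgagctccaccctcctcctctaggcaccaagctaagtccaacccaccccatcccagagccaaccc
Cldn14: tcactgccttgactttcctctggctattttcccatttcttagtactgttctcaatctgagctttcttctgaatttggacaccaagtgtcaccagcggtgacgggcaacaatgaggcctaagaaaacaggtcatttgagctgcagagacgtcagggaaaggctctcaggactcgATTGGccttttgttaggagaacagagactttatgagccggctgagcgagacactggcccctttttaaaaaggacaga
Promoters of all 10 genes were found in the table, and 7 motifs were searched on both strands, without regard to overlap. They were the 10-base NF-κB consensus, the TATA box TATAAA, the CCAAT box CCAAT, the C/EBP site TTGCNNAA, the STAT site TTCNNNGAA, the Snail E-box CACCTG and the Sp1 site GGGCGG. Of 32851 RefSeq promoters of the same length, these letters were found in 3.90%, 12.4%, 33.8%, 9.56%, 7.02%, 17.2% and 32.7%, in that order. The *Gjb1* and *Cldn14* windows each held a CCAAT box, which begins at position −46 from the start in *Gjb1* and, on the other strand, at −77 in *Cldn14*. The *Gjb2* window held an Sp1 site at −211 on the strand of the gene. On the other strand it held an Sp1 site at −126, an NF-κB consensus at −134 that overlaps it, and a Snail E-box at −9. The *Cldn3* window held an Sp1 site at −236, also on the other strand. No other window of the 10 genes held the NF-κB consensus, and none held the letters of the C/EBP or STAT motif. The only *Tjp1* start in the table lies inside the gene, so its window is not at the outer end of that gene. RefSeq lists 4 starts for *Gjb1* and 3 for *Cldn14*, and 3′-end reads do not show which start was used. The bases checked after the start were found in a GENCODE transcript of the gene for every window except that of *Gjb1*. A match describes the sequence and does not show that a factor binds there.

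*Gja1* encodes connexin 43, which in liver is known mainly from non-parenchymal cells such as endothelial, stellate and Kupffer cells. The gene lies on chromosome 10 (chr10:56377330-56402513, plus strand), but the row with its symbol stood next to *Timp4* of chromosome 6, at the place of *Pparg*. That row had 46 and 45 counts with saline, 29 and 10 with LPS and 74 and 50 with LGK974 and LPS. In CPM, these were 4.27 and 2.94, 3.16 and 1.07, and 5.59 and 3.38. The control range overlapped that of each LPS-injected group. With symbols as deposited, the log2 fold change between endotoxemic and control was −0.76 (95% interval −2.07 to 0.55, edgeR adjusted p = 0.317). It ranged from −1.685 to −0.18 with 1 library left out.

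The row at the place of *Gja1*, between *Msl3l2* and *4930467K11Rik*, carried the symbol *Mecom* of chromosome 3. It had 22 and 13 counts with saline, 277 and 141 with LPS and 235 and 273 with LGK974 and LPS. Its counts in every LPS-injected library were above the control counts of either row. When the endotoxemic and LGK974 counts of this row were given to *Gja1*, and its control counts were kept under its symbol, its level was 3.63 ± 0.941 CPM (SD, n = 2) in the control group, 22.7 ± 10.8 CPM with LPS and 18.2 ± 0.517 CPM with LGK974 and LPS. *Gja1* was then higher with LPS (log2 fold change 2.66, SE 0.38, 95% interval 1.79 to 3.52, edgeR adjusted p = 0.00061) and with LGK974 and LPS (2.34, SE 0.38, edgeR adjusted p = 0.0017) than with saline. Between LGK974 and endotoxemic, the difference was −0.32 (95% interval −1.10 to 0.46, edgeR adjusted p = 0.619). The direction of *Gja1* under LPS thus depends on which row is read. Across the 438 matched rows, control and endotoxemic mean counts had a rho of 0.805 by place and 0.0536 by symbol. The value as deposited may therefore compare counts of different genes, which was not tested for this row alone.

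**Figure D3:**
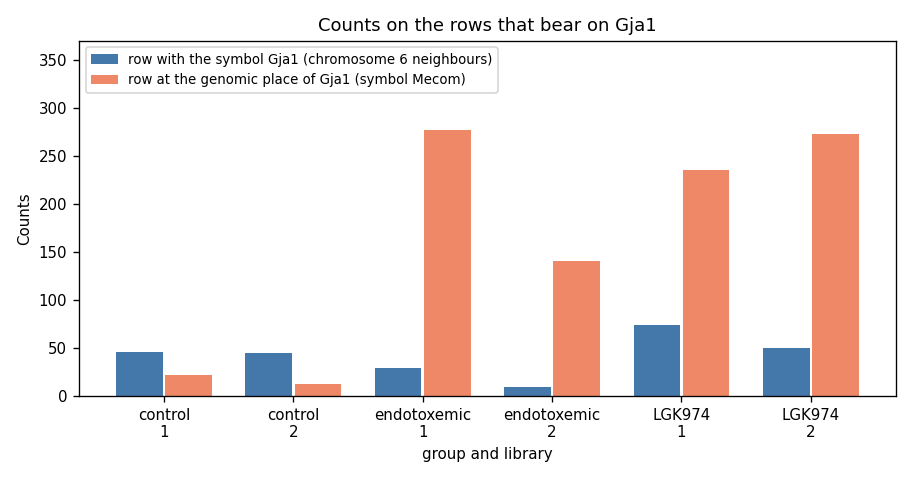
Counts (vertical axis, from 0) in the 6 distinct libraries on the row with the symbol Gja1 and on the row at the genomic place of Gja1, which carries the symbol Mecom. The row with the symbol has between 10 and 74 counts in all libraries, and the row at the place has 22 and 13 in the control libraries and between 141 and 277 in the LPS-injected groups.

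Among the claudins, *Cldn14* had the largest change of the 10 genes in the comparison of endotoxemic with control. It encodes a barrier-forming claudin best known from the inner ear and the kidney and lies at chr16:93919031-94008837 on the minus strand. Its level was 18.2 and 18.0 CPM with saline, 301.7 and 278 CPM with LPS and 116 and 80.2 CPM with LGK974 and LPS. The 3 groups did not overlap, and the LGK974 libraries lay between the others. The group means were 18.1 ± 0.108 (SD, n = 2), 289.8 ± 16.8 and 97.9 ± 25.0 CPM. *Cldn14* rose 16.0-fold in the endotoxemic group (log2 fold change 4.00, SE 0.24, 95% interval 3.45 to 4.55, edgeR adjusted p = 4.7e-06).

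*Cldn2* encodes a claudin that forms pores for cations and water, and like *Gjb1* it is X-linked (chrX:139800828-139811386, plus strand). Its level was 72.7 and 72.8 CPM with saline, 136 and 148 CPM with LPS and 144 and 141 CPM with LGK974 and LPS. All LPS-injected libraries were above both control libraries, and the ranges of the endotoxemic and LGK974 groups overlapped. *Cldn2* rose 1.95-fold in the endotoxemic group (log2 fold change 0.97, SE 0.18, 95% interval 0.56 to 1.37, edgeR adjusted p = 0.0024).

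*Cldn3* encodes a sealing claudin of hepatocytes and lies at chr5:134986214-134987472 on the plus strand. Its level was 106 and 95.03 CPM with saline, 31.1 and 27.7 CPM with LPS and 22.0 and 55.5 CPM with LGK974 and LPS. The control libraries were above all others, and the LGK974 libraries lay on both sides of the endotoxemic ones. *Cldn3* was 3.42-fold lower in the endotoxemic group (log2 fold change −1.77, SE 0.37, 95% interval −2.61 to −0.94, edgeR adjusted p = 0.0044). The end of *Cldn3*, from position 134987433 to 134987472, overlaps the antisense gene *Wbscr25* (chr5:134987433-135001350). Whether the counting used strand is not given in the sources used here.

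*Cldn1* encodes a claudin needed for tight junction barriers in several epithelia and lies at chr16:26356642-26371841 on the minus strand. Its level was 50.0 and 44.2 CPM with saline, 20.2 and 16.95 CPM with LPS and 12.2 and 24.7 CPM with LGK974 and LPS. The pattern was that of *Cldn3*, with both control libraries above the others and the LGK974 libraries on both sides of the endotoxemic ones. *Cldn1* was 2.54-fold lower in the endotoxemic group (log2 fold change −1.34, SE 0.32, 95% interval −2.06 to −0.62, edgeR adjusted p = 0.0084). Without control library 1 the edgeR adjusted p was 0.058, and without endotoxemic library 2 it was 0.075.

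*Cldn12*, at chr5:5489537-5514958 on the minus strand, encodes a claudin without the usual C-terminal motif that binds ZO proteins. Its level was 50.6 and 52.7 CPM with saline, 48.3 and 45.1 CPM with LPS and 46.4 and 36.6 CPM with LGK974 and LPS. The control libraries were the highest, by a small margin. The log2 fold change between endotoxemic and control was −0.14 (95% interval −0.60 to 0.31, edgeR adjusted p = 0.59).

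The makeup of the claudin transcripts changed along with these levels. The tables held 25 rows of the claudin list, 23 of claudins and those of *Cldnd1* and *Cldnd2*, genes with a claudin domain, and the summed level of the list was 309.5 and 299.9 CPM with saline, 560.0 and 535 CPM with LPS and 363.5 and 361 CPM with LGK974 and LPS. *Cldn3* held the largest share of these counts in the control group (33.0% ± 1.85, SD, n = 2), followed by *Cldn2* (23.9% ± 0.564). In the endotoxemic group *Cldn14* held 52.9% ± 1.37 and *Cldn3* 5.37% ± 0.264. The claudin with the largest share thus differed between these groups. In the LGK974 group *Cldn2* held the most, 39.2% ± 0.448, and *Cldn14* held 27.0% ± 6.79. The 20 rows other than the 5 claudins described held 4.79% ± 1.34 of the counts in the control group, 3.82% ± 0.302 with LPS and 6.53% ± 0.0398 with LGK974 and LPS, and most of these were counts of *Cldnd1*. Over the 23 claudins alone, a choice made after the values were seen, *Cldn3* held 34.4% ± 1.47 in the control group, *Cldn14* held 54.9% ± 1.62 with LPS and *Cldn2* held 41.7% ± 0.466 with LGK974 and LPS. The 18 claudins not described then held 0.769% ± 0.0801, 0.307% ± 0.0614 and 0.763% ± 0.0186.

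*Tjp1* encodes ZO-1 and lies at chr7:65296165-65527781 on the minus strand. Its level was 11.6 and 17.5 CPM with saline, 13.4 and 19.2 CPM with LPS and 12.4 and 14.6 CPM with LGK974 and LPS. The 3 groups overlapped. The log2 fold change between endotoxemic and control was 0.16 (95% interval −0.52 to 0.84, edgeR adjusted p = 0.692), and its sign turned without control library 1 (−0.10) or endotoxemic library 2 (−0.12).

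*Ocln* encodes occludin and lies at chr13:100496507-100552718 on the minus strand. It had 64 and 61 counts with saline, 21 and 13 with LPS and 16 and 7 with LGK974 and LPS. In CPM, these were 5.94 and 3.99, 2.29 and 1.39, and 1.21 and 0.474. The control libraries lay above all others, but the counts were low. The log2 fold change between endotoxemic and control was −1.42 (SE 0.58, 95% interval −2.74 to −0.11), with an edgeR p of 0.0365 before adjustment and 0.0758 after it. The adjusted p was 0.026 with the LGK974 libraries left out of the fit and 0.012 with the identical endotoxemic libraries kept apart. In the other 7 of 9 settings that tested it with no single library left out, *Ocln* did not pass the threshold. Leaving out 1 library moved its log2 fold change between −1.77 and −1.105.

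Ordered by level, the control group ran from *Gjb1* through *Gjb2*, *Cldn3*, *Cldn2*, *Cldn12*, *Cldn1*, *Cldn14* and *Tjp1* to *Ocln* and *Gja1* as deposited, and the ranges of neighbours overlapped only for the last pair. The endotoxemic group ran from *Cldn14* and *Gjb2*, whose ranges overlapped, through *Cldn2*, *Gjb1*, *Cldn12*, *Cldn3*, *Cldn1* and *Tjp1* to *Gja1* as deposited and *Ocln*. In that group *Cldn1* overlapped *Tjp1*, and *Gja1* overlapped *Ocln*. In the LGK974 group *Gjb2* was the highest, followed by *Cldn2*, *Gjb1* and *Cldn14*, of which each overlapped the next, and *Ocln* was the lowest. *Cldn12*, *Cldn3*, *Cldn1* and *Tjp1* followed *Cldn14* there, and each again overlapped the next, before *Gja1* as deposited and *Ocln*.

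The second comparison, LGK974 against endotoxemic, asked whether LGK974 altered the junction transcripts in LPS-injected mice. *Cldn14* was lower in the LGK974 group, and the other 9 genes did not pass the threshold. Of all genes tested, 5.62% were called in this comparison, 2.80% higher and 2.82% lower. The median log2 fold change was −0.01 over the 10 genes and 0.03 over all genes tested.

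*Cldn14* was 2.96-fold lower with LGK974 and LPS than with LPS (log2 fold change −1.57, SE 0.22, 95% interval −2.06 to −1.07, edgeR adjusted p = 0.0069). It remained 5.40-fold above the control group (log2 fold change 2.43, SE 0.23, edgeR adjusted p = 6.6e-05). Leaving out any 1 library kept the difference from the endotoxemic group between −1.85 and −1.33. Without endotoxemic library 1 or 2, however, the adjusted p was 0.068 and 0.067.

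*Gjb1* had a log2 difference of 0.40 between LGK974 and endotoxemic (95% interval −0.07 to 0.87, edgeR adjusted p = 0.293). LGK974 library 2 was the higher library for *Gjb1*, *Cldn1* and *Cldn3*. Without LGK974 library 1, the log2 fold change was 0.61 for *Gjb1* and 0.92 for *Cldn3*. Without LGK974 library 2, it was 0.15 for *Gjb1* and −0.42 for *Cldn3*. With both libraries, *Cldn3* had a difference of 0.40 (95% interval −0.42 to 1.22, edgeR adjusted p = 0.553).

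The intervals of the differences bound what these libraries could show for the other genes. For *Gjb2*, the log2 difference was −0.01 with an interval of −0.40 to 0.39, and for *Cldn2* it was 0.00 with an interval of −0.40 to 0.40. *Cldn12* had a difference of −0.17 (−0.63 to 0.28), *Tjp1* of −0.27 (−0.95 to 0.41) and *Cldn1* of −0.01 (−0.73 to 0.71). The intervals were widest for the genes with few counts, *Ocln* (−1.13, interval −2.56 to 0.30) and *Gja1* as deposited (1.08, interval −0.22 to 2.38). With 1 library left out, *Ocln* ranged from −1.93 to −0.60 and *Gja1* as deposited from 0.50 to 2.03.

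**Figure D4:**
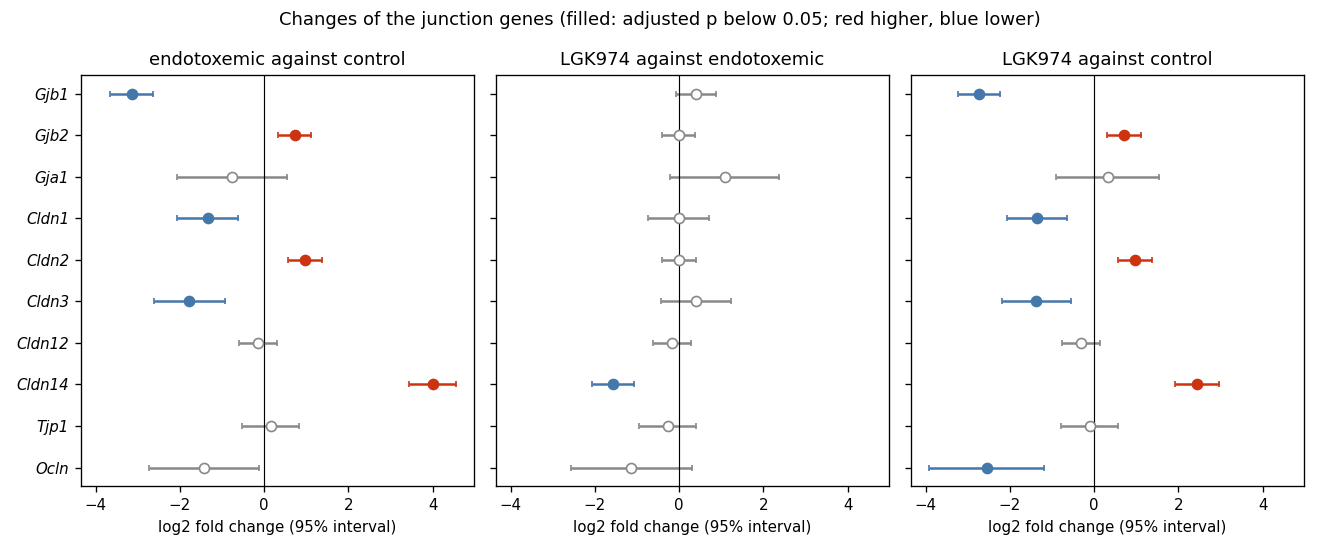
Log2 fold changes of the 10 junction genes (horizontal axes, one panel per comparison, symbols as deposited) with 95% intervals from edgeR. Filled points passed the adjusted p threshold of 0.05, red higher and blue lower. Between LGK974 and endotoxemic, the only filled point is Cldn14 at −1.57.

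The comparison of the LGK974 group with the control group showed what still differed from saline-injected mice. *Gjb2*, *Cldn2* and *Cldn14* were higher and *Gjb1*, *Cldn1*, *Cldn3* and *Ocln* were lower, that is 3 and 4 of 10 genes. Of all genes tested, 34.1% were called, 16.4% higher and 17.7% lower, with a median log2 fold change of 0.02 against −0.21 over the 10 genes. This comparison shares its control libraries with the comparison of endotoxemic with control. *Gjb1* was 6.70-fold lower (log2 fold change −2.74, SE 0.22, edgeR adjusted p = 2.6e-05) and *Ocln* 5.88-fold lower (−2.56, SE 0.61, 95% interval −3.93 to −1.18, edgeR adjusted p = 0.011). The main connexin of hepatocytes and occludin thus lay below their saline levels. *Cldn1* was 2.55-fold lower (−1.35, SE 0.32, edgeR adjusted p = 0.010) and *Cldn3* 2.59-fold lower (−1.37, SE 0.36, edgeR adjusted p = 0.017). *Gjb2* was 1.64-fold higher (0.71, SE 0.18, edgeR adjusted p = 0.013) and *Cldn2* 1.95-fold higher (0.97, SE 0.18, edgeR adjusted p = 0.0031). The LGK974 libraries differed for 3 of these genes. Without LGK974 library 2, the log2 fold change was −1.95 for *Cldn1*, −2.19 for *Cldn3* and −2.02 for *Ocln*, and without LGK974 library 1 it was −0.925 for *Cldn1*, −0.85 for *Cldn3* and −3.35 for *Ocln*, with every call kept. Calls were lost without single control libraries. Without control library 1, the adjusted p was 0.104 for *Gjb2*, 0.071 for *Cldn1*, 0.094 for *Cldn3* and 0.085 for *Ocln*, and without control library 2 it was 0.113 for *Gjb2* and 0.064 for *Cldn3*. *Cldn12* (−0.32, interval −0.77 to 0.14) and *Tjp1* (−0.11, interval −0.79 to 0.56) did not pass the threshold.

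Other junction genes were counted on lists chosen by function. Over all genes tested, 20.4% were higher and 23.0% lower with LPS than with saline, which is the background of the counts on these lists. Of 23 connexin and pannexin rows, 8 were tested, and 3 were higher and 2 lower with LPS than with saline, with a median log2 fold change of 1.06. Besides *Gjb2*, the higher genes were *Gja4*, the arterial endothelial connexin 37 (63 and 107 counts with saline, 391 and 497 with LPS, 220 and 163 with LGK974 and LPS), and *Panx1*, a channel for ATP release (8 and 2, 26 and 28, 21 and 17 counts). Both had low counts in the control group, and *Gja4* had intermediate counts per library in the LGK974 group. *Gja4* rose by 2.89 on the log2 scale (SE 0.29, edgeR adjusted p = 6.0e-05), was lower with LGK974 and LPS than with LPS (−1.79, SE 0.27, edgeR adjusted p = 0.0093), and remained above the control group (1.10, edgeR adjusted p = 0.015). *Panx1* rose by 2.80 (SE 0.79, edgeR adjusted p = 0.019).

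Of the 25 rows of the claudin list, 7 were tested, *Cldnd1* among them, and the 4 called between endotoxemic and control were *Cldn14*, *Cldn2*, *Cldn1* and *Cldn3*. *Cldn5*, the claudin of endothelial cells, had between 10 and 20 counts in every library and did not pass the threshold (log2 fold change 0.05, edgeR adjusted p = 0.96). *Cldn4* and *Cldn7*, claudins of bile duct cells, had between 0 and 7 counts.

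Among 34 other tight junction genes, *Tjp1* and *Ocln* included, 32 were tested, and 3 of them were higher and 13 lower with LPS than with saline (median log2 fold change −0.69), against 20.4% and 23.0% over all genes tested. On the 30 rows in genomic order, 3 were higher and 11 were lower. *Jam2*, a junctional adhesion molecule (1.67, edgeR adjusted p = 0.0075), and *Mpp5*, a polarity scaffold (0.69, edgeR adjusted p = 0.022), were among those that rose. The largest falls on rows in order were those of *Mpdz*, a scaffold with many PDZ domains (−2.82, edgeR adjusted p = 0.00027), *Ildr2*, an angulin family gene (−2.68, edgeR adjusted p = 0.00061), and *Cgn*, which encodes cingulin (−2.40, edgeR adjusted p = 0.0050). The symbols *Prkcz* and *Jam3* stood on rows out of order and had 137 and 156 and 15 and 29 counts with saline, against 0 and 1 and 1 and 2 with LPS. Between LGK974 and endotoxemic, *Igsf5* was higher (1.13, SE 0.26, edgeR adjusted p = 0.038). Between LGK974 and control, 2 were higher and 11 were lower (2 and 9 on the 30 rows in order), against 16.4% and 17.7% over all genes tested, with *Amotl2* (−1.99) and *Mpdz* (−1.88) among the latter.

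Adherens junction and desmosome genes, whose products join the same cell borders, were also counted. Of 11 adherens junction genes, 4 fell with LPS and the other 7 did not pass the threshold (median −0.60), against 23.0% lower over all genes tested. *Cdh2*, N-cadherin, had 938 and 1248 counts with saline, 120 and 116 with LPS, and 270 and 401 with LGK974 and LPS. It fell by 2.73 under LPS (SE 0.23, edgeR adjusted p = 2.4e-05). *Cdh1*, E-cadherin, fell by 2.43 (SE 0.25, edgeR adjusted p = 6.9e-05). Of 7 desmosome genes, 5 fell and the other 2 did not pass it (median −2.19), against 23.0% lower over all genes tested. *Dsc2*, a desmosomal cadherin, had 130 and 252 counts with saline, 11 and 8 with LPS, and 67 and 82 with LGK974 and LPS. Its level fell by 3.79 (SE 0.39, edgeR adjusted p = 8.0e-05). Between LGK974 and endotoxemic, *Cdh2* (0.90, edgeR adjusted p = 0.048), *Dsc2* (2.36, edgeR adjusted p = 0.014) and *Dsp*, which encodes desmoplakin (1.39, edgeR adjusted p = 0.018), were higher. These were 1 of the 11 adherens junction genes and 2 of the 7 desmosome genes, against 2.80% higher over all genes tested, and the others on both lists did not pass the threshold. All 3 were still lower than with saline, by log2 fold changes of −1.83, −1.43 and −0.80.

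**Figure D5:**
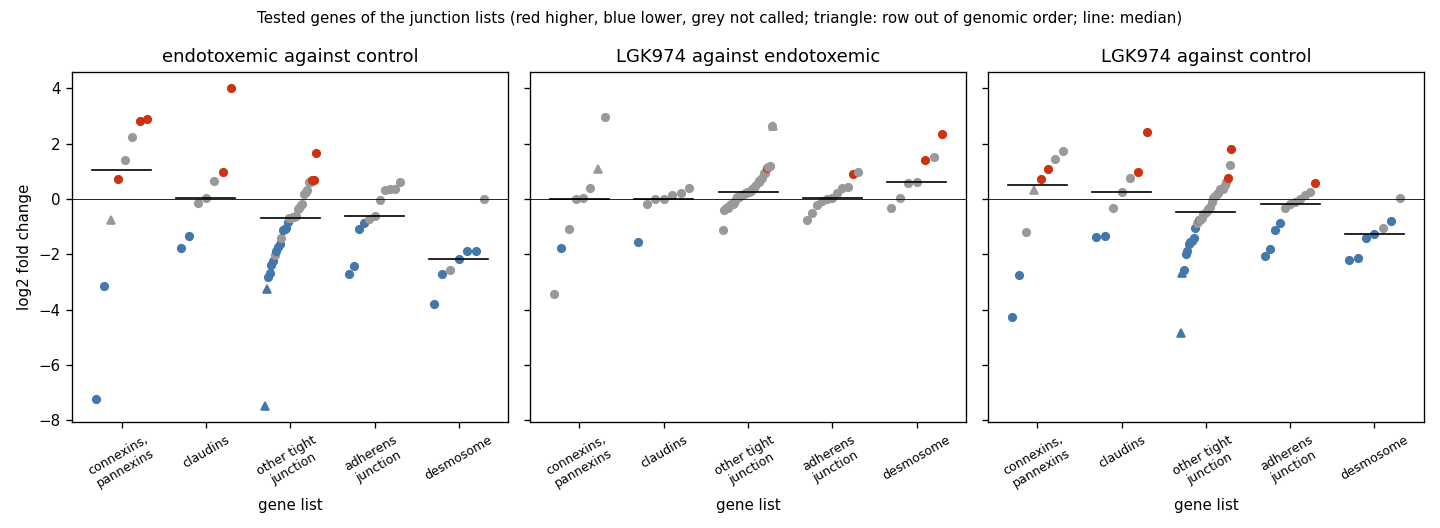
Log2 fold changes (vertical axis) of the tested genes of 5 junction gene lists in each comparison, with red points higher, blue points lower and grey points not past the adjusted p threshold of 0.05. Triangles are symbols on rows out of genomic order and lines are medians. Between endotoxemic and control, the desmosome list has a median of −2.19 and 5 blue points.

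Markers of other liver cell types moved beside these values. Over all genes tested, 20.4% were higher and 23.0% lower with LPS than with saline, which is the background of the marker counts below. The summed level of 9 hepatocyte markers on rows in order ranged from 93790 to 131200 CPM with saline, from 71060 to 100000 CPM with LPS and from 79160 to 79680 CPM with LGK974 and LPS. *Alb* and *Fgb*, a fibrinogen gene, carried most of these sums. Of the 9 markers, 7 were lower and *Fgb* was higher with LPS than with saline (2.085, edgeR adjusted p = 0.00015). *Pck1*, an enzyme of gluconeogenesis (−4.74, edgeR adjusted p = 1.1e-05), and *Cyp2e1*, a cytochrome P450 (−3.635, edgeR adjusted p = 1.2e-05), had the largest falls. The summed level of 10 cholangiocyte markers was 34.8 and 34.2 CPM with saline, 86.8 and 93.5 CPM with LPS and 43.3 and 96.5 CPM with LGK974 and LPS, and most of the endotoxemic counts were those of *Sox9* (676 and 745). *Sox9* encodes a transcription factor of bile duct cells. The defining bile duct keratins *Krt19* and *Krt7* were at or near 0 in the endotoxemic libraries, with 0 and 1 and with 0 and 6 counts, against 19 and 30 and 24 and 22 with saline. With LGK974 and LPS, *Krt19* had 39 and 11 counts and *Krt7* had 4 and 0. The summed level of 9 endothelial markers was 242 and 258.5 CPM in the control, 452 and 451 CPM with LPS and 480.5 and 622 CPM in the LGK974 libraries, and *Lyve1* made up most of it in the endotoxemic libraries. *Lyve1* marks sinusoidal and lymphatic endothelium. Of the 9 markers, 2 were higher with LPS than with saline, *Lyve1* and the vascular cadherin gene *Cdh5* (1.79, edgeR adjusted p = 0.00040), and 3 were lower. Among the latter, the endothelial receptor gene *Kdr* had 697 and 988 counts with saline and 8 and 21 with LPS. The summed level of 4 neutrophil markers was 4.08 and 3.27 CPM in the control, 72.7 and 79.2 CPM with LPS, and 44.4 and 46.4 CPM in the LGK974 libraries. The summed level of 10 stellate and fibroblast markers ranged from 489 to 612 CPM over all libraries, and *Dcn*, which encodes decorin, carried most of it. With LPS, *Dcn* was higher (0.60, edgeR adjusted p = 0.031) and 6 of the 10 were lower (median log2 fold change over the 10 of −2.20), *Lrat*, a retinol-storage gene of stellate cells, among them (−2.935, edgeR adjusted p = 0.0023). The summed level of 6 macrophage markers on rows in order ranged from 96.9 to 149.5 CPM, but its members moved in opposite directions. With LPS, the scavenger receptor gene *Marco* rose by 3.70 (edgeR adjusted p = 1.9e-05), whereas the Kupffer cell markers *Vsig4* (−2.76, edgeR adjusted p = 0.00035) and *Clec4f* (−0.89, edgeR adjusted p = 0.012) fell. *Clec4f* was lower again with LGK974 and LPS than with LPS (−1.30, edgeR adjusted p = 0.019), and *Vsig4* had a difference of −1.11 (edgeR adjusted p = 0.13). Other markers on rows in order also differed between LGK974 and endotoxemic. *Pck1* (2.47, edgeR adjusted p = 0.0045) and the stellate and fibroblast markers *Acta2*, smooth muscle actin (2.66, edgeR adjusted p = 0.025), and *Col1a1*, a collagen gene (1.595, edgeR adjusted p = 0.036), were higher. The sinusoidal endothelial marker *Clec4g* was lower (−2.19, edgeR adjusted p = 0.016). The part of other cell types in the levels of the junction genes was not tested.

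For the 3 genes with the largest called changes between endotoxemic and control, the genes with the most similar pattern over the 6 libraries were sought among those on rows in order. Likeness was measured as the root mean square difference in centred log2 CPM with 0.5 CPM added. Closest to *Cldn14* were *Mnda* (0.177) and *Enc1* (0.178), with mean levels of 6.48 and 9.65 CPM in the control group, 123.6 and 153.5 CPM with LPS and 38.3 and 60.5 CPM with LGK974 and LPS. Closest to *Gjb1* were *C2cd2* (0.0924), at 129 CPM in the control, 15.9 CPM in the endotoxemic and 20.2 CPM in the LGK974 group, and *Marcksl1-ps4* (0.144), at 4.74, 0 and 0.211 CPM. Closest to *Cldn3* were *Nme3* (0.0979), at 37.0, 9.93 and 12.6 CPM, and *Cutal* (0.111), at 27.8, 8.09 and 11.5 CPM. *Marcksl1-ps4* was at or near 0 in the LPS-injected groups, where the added 0.5 CPM sets its likeness. The genes were chosen for their pattern, so their directions follow from the choice.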

How the data were processed

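Liver RNA was sequenced by the authors from Lexogen QuantSeq libraries, which read the 3′ ends of transcripts. Each deposited table holds, for every gene symbol, the raw count of reads. The submitters' processing notes name Bowtie2, edgeR and mm10, and the counting program and annotation are not given in the sources used here. The members and gene lists were chosen with earlier results of these data known.

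The tests used edgeR 4.0.16 under R 4.3.3, after filterByExpr and TMM. A single quasi-likelihood model of the 3 groups was fitted to the 6 distinct libraries, of 9142116 to 15222439 counts each. The common biological coefficient of variation was 0.239. P-values were adjusted over 12701 genes by the Benjamini-Hochberg method, with a threshold of 0.05. The SE was derived from the F statistic. On simulated data with 12474 genes tested and 200 changed, the endotoxemic and control comparison recovered 31.1% of genes changed by a log2 of 1 and 90.9% of those changed by 2, with 9 false calls of 137. The simulation gave every gene the same biological coefficient of variation and changed only 200 genes, whereas 43.4% were called in the data. Its rates therefore need not hold for these data.

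Row order was compared with RefSeq positions on GRCm38, and a row was out of order when its gene lay more than 2 Mb from the genes on ordered rows around it. Of 541 such rows, 438 were matched to a place. Reassigned symbols gave the LPS-injected groups' counts on a matched row to the gene at its place and left control counts as they were. Coordinates come from the GENCODE annotation of GRCm38. The genes named were drawn from the 10 members, up to 3 rises and 3 falls of each list among called genes, the 2 genes nearest in pattern to each of 3 members, and check genes of sex, of LPS response and of cell types. *Kdr*, *Krt7*, *Krt19*, *Sox9*, *Lyve1*, *Cdh5*, *Alb*, *Fgb*, *Pck1*, *Cyp2e1*, *Dcn*, *Lrat*, *Marco*, *Vsig4*, *Clec4f*, *Clec4g*, *Acta2*, *Col1a1*, *Snai1*, *Cldnd1*, *Cldnd2*, *Cldn4*, *Cldn5* and *Cldn7* were named after their values were seen. Some genes that this rule would name are counted in their lists but not reported here by name.

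Alternatives were no filter, at least 10 counts in every library, DESeq2 1.42.0, RLE scaling, the identical libraries kept apart, a replicate block, reassigned symbols, out-of-order rows left out, the 45S ribosomal RNA left out, only the compared groups in the fit, and each library left out in turn. The claudin shares without *Cldnd1* and *Cldnd2* were added after the data were seen. The replicate numbers of the labels were checked for pairing. Deviations of same-numbered libraries correlated at 0.18 (control, endotoxemic), −0.01 (control, LGK974) and 0.06 (endotoxemic, LGK974), so the numbers were not taken as pairs.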

Additional observations from a re-analysis of the deposited data

How the results depend on the processing

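Of 474 values of the 10 genes under alternatives, 434 kept direction and side of the threshold, and the remaining values included no lost call under a setting other than leaving out a library. With at least 10 counts in every library, however, *Ocln* was not tested, so 3 of the 10 genes, against 4, were lower between LGK974 and control. Genes called higher between LGK974 and endotoxemic numbered 356, against 881 without the filter, 600 with DESeq2, 1711 with the identical libraries kept apart and 107 with only both groups in the fit. Genes called lower numbered 358, against 824, 627, 1548 and 162 in the same order. With 1 library left out, the higher and lower calls ranged from 1517 to 3196 and from 1801 to 3523 between endotoxemic and control, from 23 to 1175 and from 26 to 1067 between LGK974 and endotoxemic, and from 1041 to 2608 and from 1331 to 2761 between LGK974 and control. Among the 10 genes, these ranges were 0 to 2 higher and 0 to 1 lower between LGK974 and endotoxemic, and 1 to 4 lower between LGK974 and control. A fit that leaves 1 library in a group assumes that it varies like the other groups. A block on the replicate numbers gave 2577 higher and 2908 lower genes between endotoxemic and control, 330 and 355 between LGK974 and endotoxemic, and 2048 and 2259 between LGK974 and control, and the block changed no call of the 10 genes.

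Directions turned only for log2 fold changes that had not passed the threshold. *Gja1* had 2.66 between endotoxemic and control and −0.32 between LGK974 and endotoxemic with reassigned symbols, a setting that by construction reads the counts of another row. *Cldn2* between LGK974 and endotoxemic was −0.0067 without the filter, −0.0151 with DESeq2, −0.0151 with RLE scaling, −0.0112 without out-of-order rows and −0.0019 without the 45S ribosomal RNA. With 1 library left out, *Tjp1* ranged from −0.12 to 0.49 between endotoxemic and control. Between LGK974 and endotoxemic, *Gjb2* ranged from −0.0488 to 0.0040, *Cldn1* from −0.61 to 0.41, *Cldn2* from −0.0875 to 0.0634, *Cldn3* from −0.42 to 0.92 and *Tjp1* from −0.54 to 0.0094. Between LGK974 and control, *Gja1* ranged from −0.0760 to 0.65 and *Tjp1* from −0.37 to 0.22. The cause of these changes was not tested, apart from the construction named. *Ocln*, *Tjp1* and *Gja1* as deposited had the fewest counts, with 7 to 267 per library.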

Other observations

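Transcription factors of hepatocyte and epithelial genes were on a further list, of which 12 of 13 genes were tested. Between endotoxemic and control, 1 was higher and 3 were lower by edgeR's quasi-likelihood test, with a median log2 fold change of −0.55, against 20.4% higher and 23.0% lower over all genes tested. *Foxa3*, a forkhead factor of hepatocytes, had 574 and 605 counts with saline, 1566 and 1194 with LPS and 2393 and 2962 with LGK974 and LPS, and rose by 1.69 (edgeR adjusted p = 0.00046). *Snai2*, a zinc finger repressor of epithelial genes, fell by 3.17 (edgeR adjusted p = 0.00038) from 112 and 169 counts to 9 and 13. *Snai1*, a related repressor, had 0 and 11 counts with saline, 9 and 8 with LPS and 26 and 81 with LGK974 and LPS. It did not pass the threshold between endotoxemic and control (1.197, edgeR adjusted p = 0.396) and was higher in the LGK974 than in the control group (3.21, edgeR adjusted p = 0.033). *Cebpa*, a factor of hepatocyte genes, was lower in the endotoxemic than in the control group (−0.72, edgeR adjusted p = 0.017). It was lower as well with LGK974 and LPS than with LPS (−0.83, edgeR adjusted p = 0.045).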
